A study of Mus musculus with 6 samples.

Results

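Transcripts of 8 genes that carry glucose into the hepatocyte and through glycolysis were compared between livers of mice without AEG-1 in hepatocytes and livers of control mice. AEG-1 (astrocyte elevated gene 1) is the protein of Mtdh. The genes were Slc2a2, Gckr, Gpi1, Pfkl, Pfkfb1, Pgk1, Eno1 and Pklr, chosen by their place between glucose uptake and pyruvate. They are 8 of the 46983 rows of the deposited count table, matched through their Ensembl identifiers to symbols in GENCODE vM21, and all 8 passed the filter on low counts that left 16441 genes. Another 26 glycolytic genes were described beside them.

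The mice were 12 weeks old, on a C57BL/6 background, fed chow and not treated. The knockout group, AEG-1DHEP, had a conditional deletion of AEG-1 in hepatocytes. The controls were AEG-1fl/fl mice per the series description, although their sample titles call them WT, and the allele that drives the deletion is not given in the sources used here. Per the labels each group had 3 adult mice and 1 RNA-seq library per liver. Control replicates 1 and 2 held the same value in each of the 46983 rows. Their difference was thus below the sampling noise, and they count here as 1 sample, named control replicate 1. The comparison is therefore of 3 knockout with 2 distinct control libraries. Every library came from whole liver, where fewer cells of a type and less RNA per cell cannot be told apart.

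In liver, glucose enters the hepatocyte mainly through the low-affinity carrier GLUT2, is phosphorylated and runs through phosphofructokinase, enolase and pyruvate kinase to pyruvate. Phosphorylation of glucose is restrained by a regulatory protein in the nucleus, phosphofructokinase is set by fructose 2,6-bisphosphate, and liver pyruvate kinase is controlled by phosphorylation and by transcription through the glucose-sensing factor ChREBP. The same organ makes glucose by the opposing enzymes, and the balance between making and burning glucose follows feeding.

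Library totals ran from 29557477 to 33685670 counts. Mtdh served as the check of the labels. It had 89, 74 and 76 counts in knockout livers and 1529 and 1612 in control livers, and its log2 fold change came to -4.36 (SE 0.15, edgeR's quasi-likelihood test, adjusted p = 0.000564). The hepatocyte markers were abundant in every library, with a summed level of 80789 to 114773 CPM, which are counts divided by the library total after adjustment by trimmed mean of M values. Mtdh was the only gene of the 16441 that edgeR called at an adjusted p under 0.05, which is 0.00608% of them, and no gene was called higher in knockout (0.0%). DESeq2 called 18 of 20612 genes (0.0873%), of which 7 were higher in knockout (0.034%), and limma-voom called 1.

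The fitted level of all 8 genes was higher in the knockout livers, under each scaling tried, and none passed the test. The median log2 fold change of the 8 was 0.29, against 0.0090 over all genes tested, of which 52.1% had a fold change above 0. The summed level of the 8 was 1963, 2027 and 2102 CPM in knockout livers and 1239 and 1731 CPM in control livers. Every knockout library was above both control libraries for 5 genes, Slc2a2, Pfkl, Pfkfb1, Eno1 and Pklr. Over all genes tested, 8.16% had this order and 8.72% the opposite one, which none of the 8 had. Without control replicate 1 it was the same 5 genes, where 24.3% of all genes had this order, and without control replicate 3 Gpi1 and Pgk1 joined them, where 24.9% had it. By edgeR's quasi-likelihood test 0 of 8 had an adjusted p under 0.05, and each adjusted p was 1.00. Unadjusted p-values were under 0.05 for 2 genes, Pfkfb1 and Eno1, where 3.43% of all genes were under it in either direction and 1.63% in the higher direction. DESeq2 and limma-voom also called 0 of 8. The 2 control libraries differed in these genes: control replicate 1 was the lowest library for 6 of 8, against 21.2% of all genes, and control replicate 3 was above it for 6 of 8, against 49.3%.

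**Figure D1:**
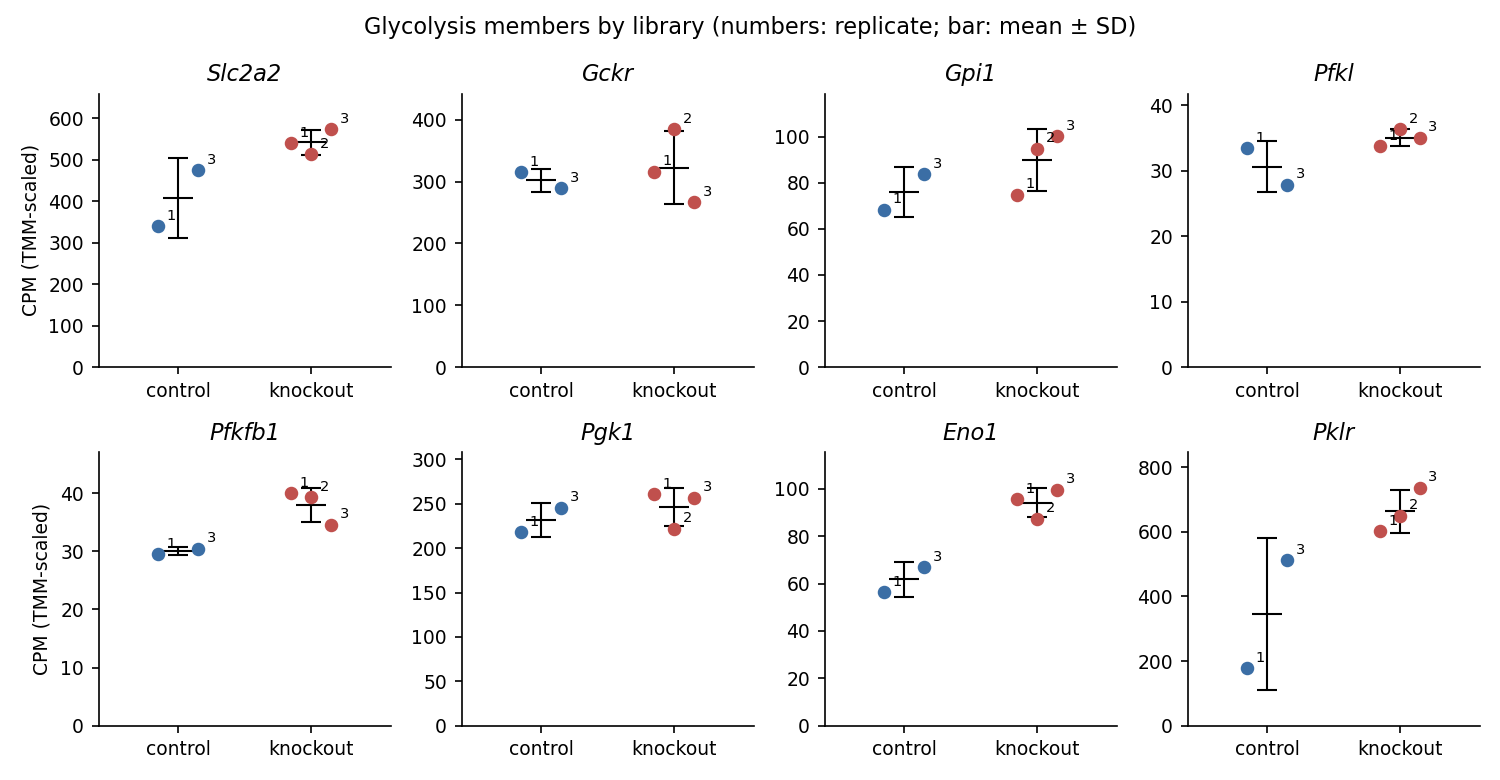
Level of each of the 8 genes in CPM (vertical axes, each with its own range) in the 2 control and 3 knockout libraries; numbers mark the replicate and bars the mean and SD of a group. The knockout libraries lie above both controls for Slc2a2, Pfkl, Pfkfb1, Eno1 and Pklr, and control replicate 1 lies far below the other libraries for Pklr.

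Slc2a2 encodes GLUT2, the carrier of glucose across the hepatocyte membrane. Its gene (ENSMUSG00000027690) lies on chromosome 3, 28697903 to 28731359, plus strand, build GRCm38. Slc2a2 stood at 539, 513 and 573 CPM in knockout livers and at 339 and 475 CPM in control livers. The groups did not overlap, and the gap between the 2 controls was about as wide as the gap between the group means. Its log2 fold change came to 0.41 (SE 0.18, 95% interval -0.020 to 0.85), a fold of 1.33, with an adjusted p of 1.00 by edgeR. Leaving out control replicate 1 gave 0.19, and leaving out control replicate 3 gave 0.68.

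Gckr encodes that regulatory protein, which slows the phosphorylation of glucose. The gene (ENSMUSG00000059434) lies on chromosome 5, 31297443 to 31327314, plus strand. Gckr stood at 316, 385 and 267 CPM in knockout livers and at 315 and 289 CPM in control livers. The groups overlapped, with both the highest and the lowest library in the knockout group. The fitted difference on the log2 scale was 0.094 (SE 0.18, 95% interval -0.34 to 0.53), and it was -0.053 without knockout replicate 2.

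Gpi1 encodes glucose-6-phosphate isomerase, which turns glucose 6-phosphate into fructose 6-phosphate. The gene (ENSMUSG00000036427) lies on chromosome 7, 34201330 to 34230336, minus strand. Gpi1 stood at 74.9, 94.8 and 100.2 CPM in knockout livers and at 68.4 and 83.8 CPM in control livers. Knockout replicate 1 lay between the controls, so the groups overlapped. Its log2 fold change came to 0.24 (SE 0.17, 95% interval -0.16 to 0.65). Leaving out control replicate 1 gave 0.098, and leaving out control replicate 3 gave 0.40.

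Pfkl encodes the liver subunit of phosphofructokinase, the committing step of glycolysis. The gene (ENSMUSG00000020277) lies on chromosome 10, 77986947 to 78010083, minus strand. Pfkl stood at 33.7, 36.4 and 35.1 CPM in knockout livers and at 33.4 and 27.9 CPM in control livers. The lowest knockout library and the highest control library were almost level, and here control replicate 3 was the lowest library. On the log2 scale the fold change was 0.19 (SE 0.12, 95% interval -0.091 to 0.48), and it was 0.070 without control replicate 3 and 0.33 without control replicate 1.

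Pfkfb1 encodes the liver bifunctional enzyme that makes and breaks fructose 2,6-bisphosphate, the activator of phosphofructokinase. The gene (ENSMUSG00000025271) lies on chromosome X, 150588229 to 150643878, plus strand. Pfkfb1 stood at 40.0, 39.4 and 34.6 CPM in knockout livers and at 29.5 and 30.5 CPM in control livers. The controls were close together and the groups did not overlap. Its log2 fold change came to 0.34 (SE 0.11, 95% interval 0.074 to 0.61), a fold of 1.27. Its unadjusted p by edgeR was 0.0199, with an adjusted p of 1.00. The value ran from 0.30 to 0.40 when each library was left out in turn.

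Pgk1 encodes phosphoglycerate kinase, the first step of glycolysis that yields ATP. The gene (ENSMUSG00000062070) lies on chromosome X, 106187100 to 106203699, plus strand. Pgk1 stood at 261, 222 and 257 CPM in knockout livers and at 218 and 246 CPM in control livers. The groups overlapped, and the log2 fold change was 0.088 (SE 0.14, 95% interval -0.25 to 0.42). It was 0.00066 without control replicate 1 and 0.18 without control replicate 3.

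Eno1 encodes alpha-enolase, which forms phosphoenolpyruvate. The gene (ENSMUSG00000063524) lies on chromosome 4, 150236721 to 150248879, plus strand. Eno1 stood at 95.6, 87.4 and 99.6 CPM in knockout livers and at 56.4 and 67.0 CPM in control livers. All 3 knockout libraries lay well above both controls. On the log2 scale the fold change was 0.61 (SE 0.13, 95% interval 0.29 to 0.93), a fold of 1.53. Its unadjusted p by edgeR was 0.00297, with an adjusted p of 1.00, and its adjusted p by DESeq2 was 0.0942. With each library left out in turn the log2 fold change ran from 0.49 to 0.74.

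Pklr encodes pyruvate kinase of liver and red cells, the last step of glycolysis. The gene (ENSMUSG00000041237) lies on chromosome 3, 89136142 to 89146784, plus strand. Pklr stood at 602, 649 and 736 CPM in knockout livers and at 179 and 512 CPM in control livers. The groups did not overlap, but the 2 controls were further apart than any knockout library was from control replicate 3. Its log2 fold change came to 0.94 (SE 0.41, 95% interval -0.050 to 1.93), a fold of 1.92 with an interval of 0.966 to 3.81, and the difference between the controls was 1.52 on the same scale. Without control replicate 1 the log2 fold change was 0.37, and without control replicate 3 it was 1.89. With control replicate 3 left out DESeq2 called Pklr (adjusted p = 2.77e-14), while edgeR did not (adjusted p = 0.134). In those fits the control arm is 1 library, assumed to vary like the knockout libraries, so the call depended on the library left out and on the tool.

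**Figure D2:**
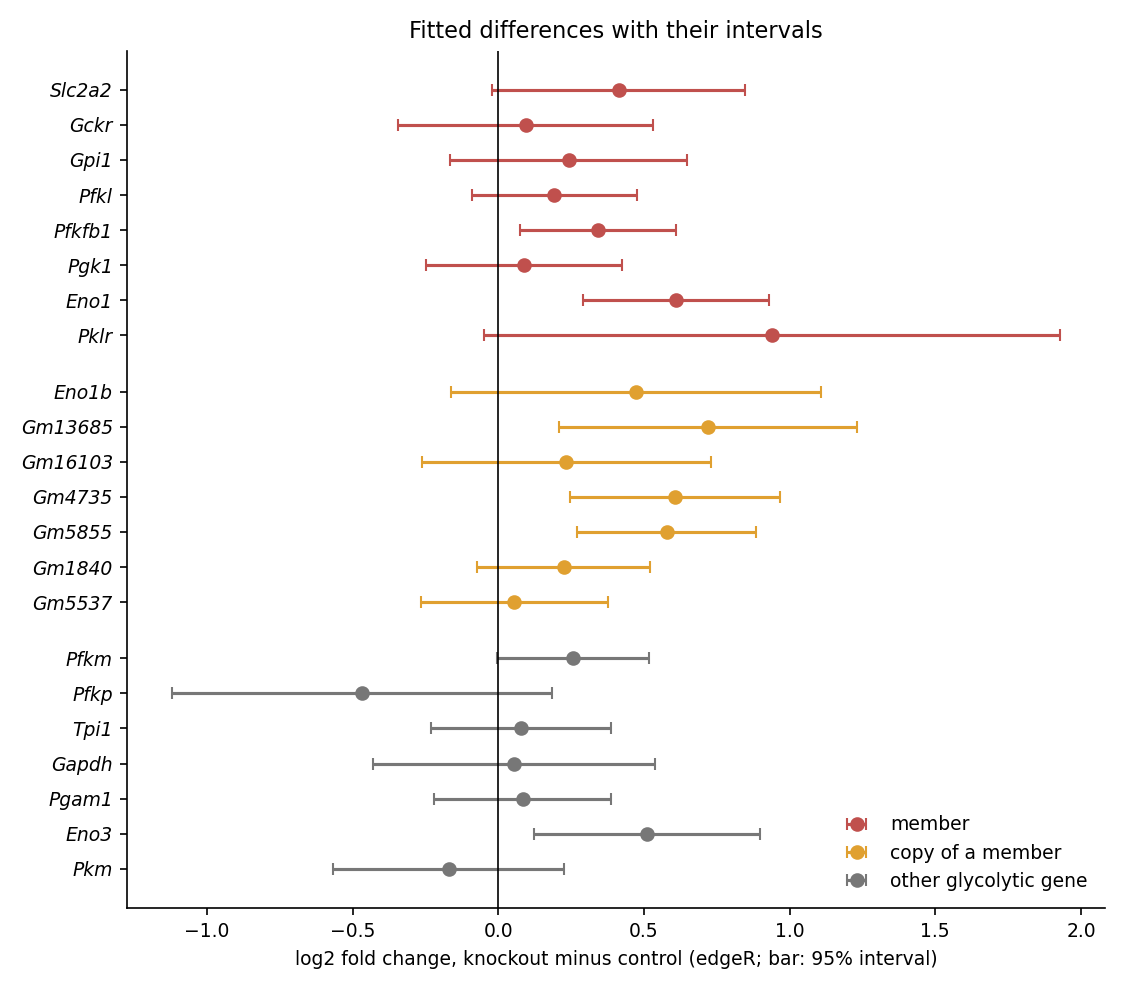
Fitted log2 fold change, knockout minus control (horizontal axis), with its 95% interval from edgeR, for the 8 genes, 7 near-identical copies of Eno1, Gpi1 and Pgk1, and 7 other glycolytic genes. All 8 points lie above 0, and the interval excludes 0 for Pfkfb1 and Eno1 among them and is widest for Pklr, from -0.050 to 1.93.

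Pklr has separate first exons for the red-cell and the liver transcript, and its liver promoter is known for a carbohydrate response element, through which ChREBP acts. Slc2a2 is another gene known to respond to glucose in liver. The windows before their starts are shown because Pklr had the largest fitted fold change of the 8 and Slc2a2 opens the pathway. They are the 250 bases upstream of each RefSeq start (GRCm38.p6), 5′ to 3′ on the gene's strand, with matches to searched motifs in capitals. The Slc2a2 window is chr3:28697653-28697902, the first Pklr window chr3:89135892-89136141, and the second Pklr window chr3:89136373-89136571, cut before an annotated exon.
Slc2a2 upstream: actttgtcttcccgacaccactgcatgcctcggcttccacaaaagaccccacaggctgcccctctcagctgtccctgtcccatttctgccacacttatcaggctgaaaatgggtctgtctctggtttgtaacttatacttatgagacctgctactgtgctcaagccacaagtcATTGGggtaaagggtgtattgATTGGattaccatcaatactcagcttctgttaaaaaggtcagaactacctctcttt
Pklr first start: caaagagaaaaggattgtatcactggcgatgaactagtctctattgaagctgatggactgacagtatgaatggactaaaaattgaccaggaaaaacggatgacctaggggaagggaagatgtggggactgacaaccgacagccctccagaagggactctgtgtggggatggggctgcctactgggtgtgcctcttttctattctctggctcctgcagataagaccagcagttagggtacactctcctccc
Pklr second start: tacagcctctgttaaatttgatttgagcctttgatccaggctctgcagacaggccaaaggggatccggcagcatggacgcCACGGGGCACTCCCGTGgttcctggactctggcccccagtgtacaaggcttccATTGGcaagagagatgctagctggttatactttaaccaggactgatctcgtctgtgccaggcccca
Both strands of every window were searched for 6 motifs. The 8 genes have 14 windows, since Pfkfb1, Eno1 and Pklr have several RefSeq starts, and the shares are over windows. The second Pklr window held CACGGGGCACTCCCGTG, a match to the pattern of a carbohydrate response element, CACG and CGTG set 9 bases apart. It begins 170 bases upstream of the start. This pattern was found in 72 of 32817 windows of all genes (0.219%), and in 1 of the 14, that of Pklr. The plain E-box CACGTG, in which CACG and CGTG share their CG, stood in 6.02% of all windows and in 0 of the 14. TATAAA stood in 12.4% of all windows and 2 of the 14, in Pklr 31 bases before the second start and so beyond the printed letters, and GTTAAT, the core letters of an HNF1 site, in 6.44% and 2 of the 14. CCAAT stood in 33.8% and 8 of the 14, among them that of Slc2a2, whose 2 matches are in capitals as ATTGG on the printed strand. The GC box GGGCGG stood in 32.7% and 5 of the 14. Eno1 windows 2 and 3 overlap, so matches they share were counted in both, and 245 and 250 of their 250 bases lie in Eno1 exons. By gene, CCAAT was matched in 6 of the 8 and the GC box in 4. The first Pklr window held none of the 6 motifs. A match is a description of the letters, and binding was not measured.

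Pklr overlaps a neighbour. Hcn3, a gene of a cation channel on the opposite strand, overlaps up to 711 bases of Pklr exons, and without a stated strand setting the reads of the 2 genes cannot be told apart. Hcn3 had 1733, 2332 and 3802 counts in knockout livers and 298 and 2060 in control livers. Like Pklr, it was lowest in control replicate 1 by far. The fitted difference on the log2 scale was 1.05 (SE 0.76), and it was 0.23 without control replicate 1 and 3.13 without control replicate 3. Pfkfb1 overlaps Apex2 by 73 bases and Gpi1 overlaps Gm26762 by 255 bases, also on opposite strands, where the neighbours had at most 283 and 44 counts.

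Eno1, Gpi1 and Pgk1 have near-identical copies elsewhere in the genome with rows of their own in the table. Copies were taken as genes with a transcript of at least 90% identity over at least 50% of its length. A short stretch of Eno1 (chr4:150246598-150246657, plus strand) and of its processed pseudogene Gm4735 (chr2:80837836-80837895, plus strand), both GRCm38 from GENCODE vM21, shows how little sets them apart. The capital marks the only base in which the 60 differ. The same is shown for Gpi1 (chr7:34207643-34207702, minus strand) and its processed pseudogene Gm1840 (chr8:5640300-5640359, plus strand).
Eno1: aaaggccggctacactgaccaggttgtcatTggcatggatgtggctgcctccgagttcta
Gm4735: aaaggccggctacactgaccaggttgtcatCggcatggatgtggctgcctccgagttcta
Gpi1: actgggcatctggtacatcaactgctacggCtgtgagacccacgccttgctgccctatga
Gm1840: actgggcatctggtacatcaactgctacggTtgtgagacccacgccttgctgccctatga
Over their alignment Eno1 and Gm4735 differed in 5 of 1302 bases, with an unbroken identical run of 725 bases. Gpi1 and Gm1840 differed in 14 of 1046 bases of their best single alignment, which leaves out part of the 1432 bases of Gm1840. Over 100% of Gm1840 the identity was 97.7%. Pgk1 and its pseudogene Gm5537 differed in 0 of 1252 bases.

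More reads were assigned to Gm4735 than to Eno1 itself. Gm4735 had 8793, 9096 and 9089 counts in knockout livers and 5170 and 6125 in control livers. Eno1 had 2936, 2895 and 3188 against 1796 and 1979. The Eno1 row held 21.3% ± 0.767 (SD, n = 3) of the counts of Eno1 and its 5 copies in knockout and 21.2% ± 0.792 (SD, n = 2) in control. The shares differed by less than their spread. The fitted difference on the log2 scale was 0.61 (SE 0.15) for Gm4735, 0.58 (SE 0.13) for Gm5855, 0.72 (SE 0.21) for Gm13685 and 0.47 (SE 0.26) for Eno1b. Gm16103 was lower at 0.23 (SE 0.21), with groups that overlapped, and came to -0.012 without control replicate 1. Summed with its copies, Eno1 came to 0.60. The Gpi1 row held 55.2% ± 1.87 of its counts with Gm1840 in knockout and 54.9% ± 1.68 in control. The Pgk1 row held 74.0% ± 0.146 and 73.6% ± 0.368 of its counts with Gm5537 and Pgk1-rs7. How many reads of the copies came from transcripts of Eno1, Gpi1 or Pgk1 was not tested.

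**Figure D3:**
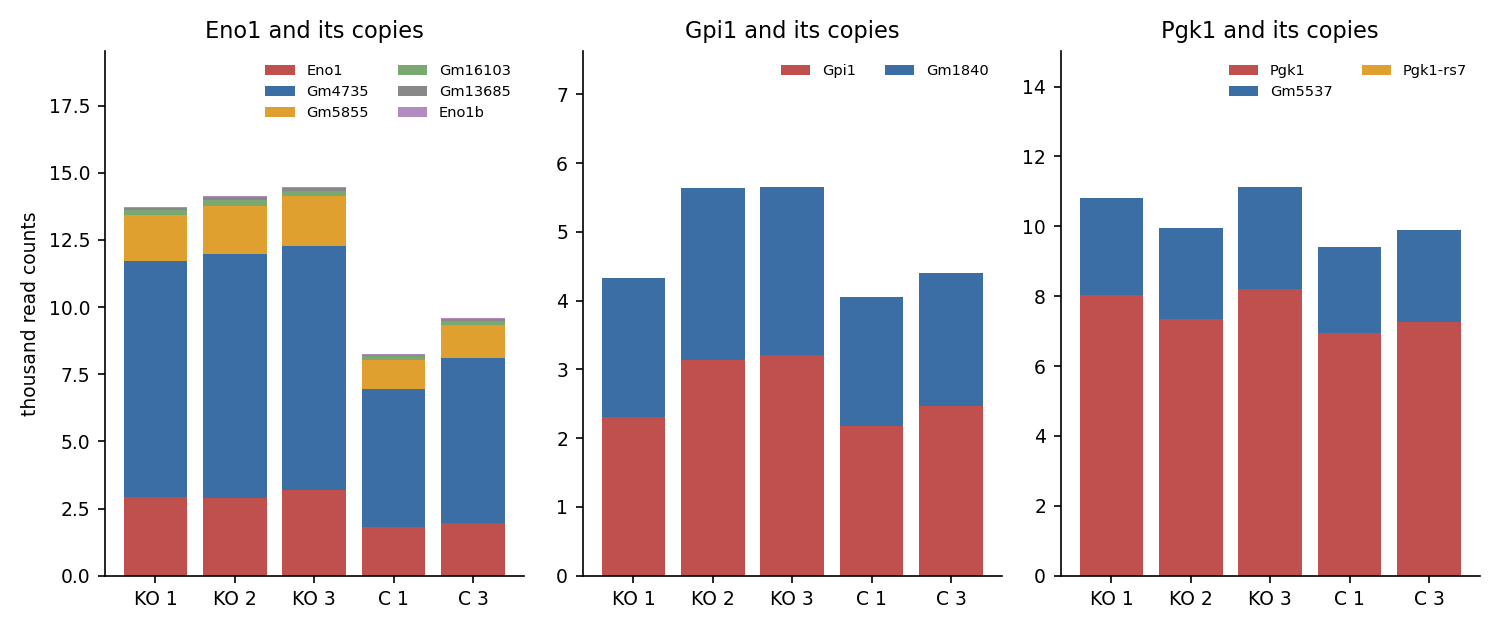
Read counts (vertical axes, scaled as marked) of Eno1, Gpi1 and Pgk1, each stacked with its near-identical copies, in the knockout (KO) and control (C) libraries, with the replicate number. Gm4735 takes most of the Eno1 family in every library, and the whole stack is taller in all 3 knockout libraries.

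Levels per length, in CPM per kilobase of summed exon, put the 8 genes in tiers. Over the 5 libraries the mean was 165.6 for Pklr, 107.3 for Pgk1, 84.8 for Slc2a2 and 72.5 for Gckr. It was 15.1 for Eno1, 13.1 for Gpi1, 8.67 for Pfkfb1 and 7.58 for Pfkl. No library of the upper 4 genes came down to any library of the lower 4. Pklr ranged from 55.2 to 227, so its place above Pgk1, at 97.3 to 116, was not kept in every library. Slc2a2 and Gckr overlapped in range, as did Eno1 and Gpi1, and Pfkfb1 and Pfkl. The levels of Eno1, Gpi1 and Pgk1 leave out the reads assigned to their copies. By the same measure Gm4735 stood at 186.6 and Gm1840 at 48.4. On average Gm4735 held 282 CPM in knockout and 185 CPM in control, against 94.2 and 61.7 CPM in the Eno1 row. The tiers are thus of rows, and the place of Eno1 in the lower tier rests on leaving out the reads of its copies. With Gm1840 the level of Gpi1 would also be higher. Summed levels per length are not given here.

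**Figure D4:**
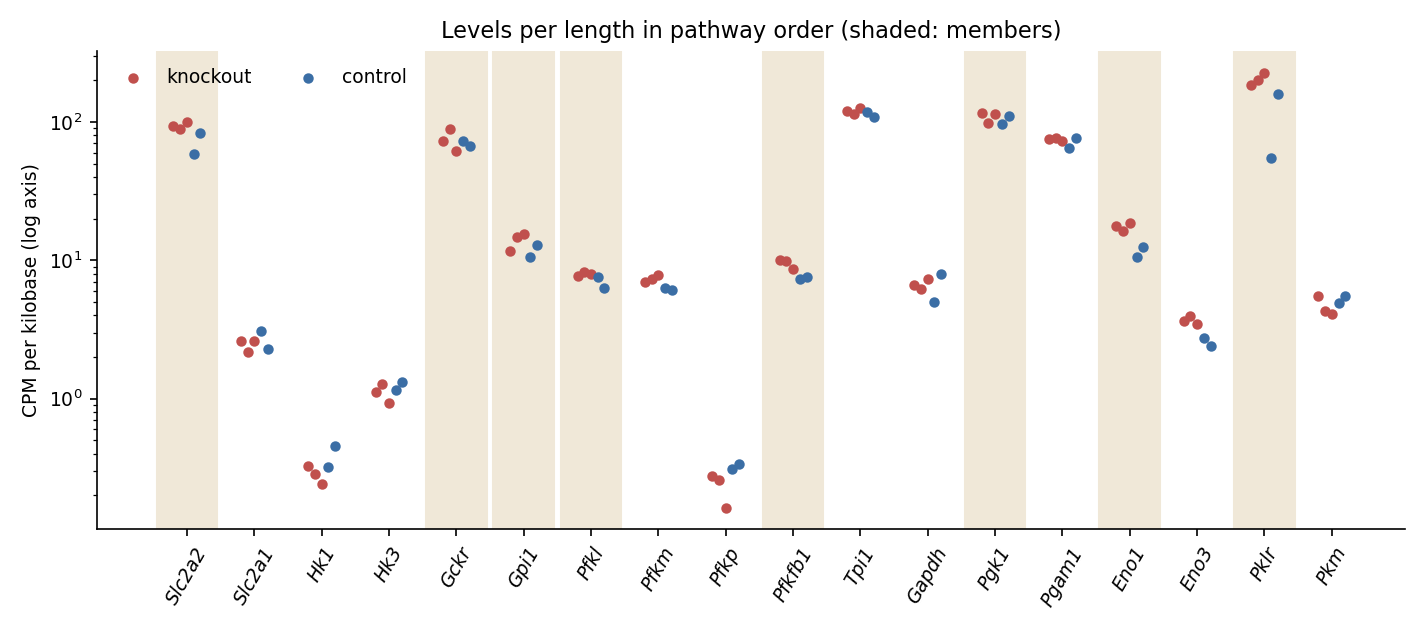
Level per length in CPM per kilobase (log axis) of the 8 genes (shaded) and 10 other glycolytic genes in pathway order, with 1 point per library. The rows of Slc2a2, Gckr, Pgk1 and Pklr stand above those of Gpi1, Pfkl, Pfkfb1 and Eno1, with reads assigned to near-identical copies left out.

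At most steps 1 isozyme held most of the transcript level. By levels per length Slc2a2 made up 96.1% ± 1.43 (SD, n = 3) of Slc2a1 to Slc2a4 in knockout and 94.9% ± 2.98 (SD, n = 2) in control. Transporters beyond these were not in that sum. Pklr made up 97.7% ± 0.566 of pyruvate kinases in knockout and 94.2% ± 3.40 in control, beside Pkm, the form of most other tissues. Eno1 made up 82.4% ± 1.96 and 81.2% ± 3.24 of enolases, beside the muscle form Eno3. Summed with its copies, Eno1 made up 95.7% ± 0.411 and 95.3% ± 1.11. Phosphofructokinase and its bifunctional regulator were mixed. Pfkl made up 51.2% ± 1.02 in knockout and 51.7% ± 2.82 in control, with the muscle form Pfkm as most of the rest. Pfkfb1 made up 63.9% ± 11.9 and 65.8% ± 5.89, beside Pfkfb2 and Pfkfb3. The exact permutation test of these shares, two-sided, gave p from 0.2 to 1, and it cannot go below 0.2 with 3 against 2.

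The other glycolytic enzymes lay on both sides of 0. Of 26 listed, 23 were kept, 15 with a higher and 8 with a lower fitted level, the median log2 fold change was 0.084, and edgeR called none. Leaving out control replicate 1 brought it to -0.018, and leaving out control replicate 3 brought it to 0.19. Every knockout library was above both controls for 3 of 23, where 8.16% of all genes had this order. The fitted log2 fold change was 0.51 (SE 0.16) for Eno3 and 0.26 (SE 0.11) for Pfkm, both muscle forms. Pfkp was lower in every knockout library, at -0.47 (SE 0.27), and Pkm was at -0.17 (SE 0.17). Gapdh stood at 20.7 to 32.8 CPM, but 186 genes met the rule for its near-identical copies, so its level was not read. That rule takes any gene with a matching transcript, so the 186 include the protein-coding gene Peli2 (90.8% identity over 67.5%).

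Transcripts around the pathway were described from lists in the same way, and edgeR called none of them. Other glucose and hexose transporters had 4 of 8 kept genes higher and a median log2 fold change of 0.018, from -0.13 to 0.11 with each library left out. Pyruvate and lactate handling had 15 of 20 higher and a median of 0.18 (0.11 to 0.28 over the libraries left out), led by the monocarboxylate carrier Slc16a7 at 0.67 (SE 0.16) and the kinase of pyruvate dehydrogenase Pdk1 at 0.64 (SE 0.19). Gluconeogenic enzymes that oppose glycolysis had 7 of 7 higher and a median of 0.21 (0.18 to 0.35 over the libraries left out), with no gene without overlap. The ratio of Pfkl to Fbp1, the opposing enzymes of 1 step, was 0.0115 ± 0.00243 in knockout and 0.0123 ± 0.00102 in control per kilobase. For Pklr over Pck1, which acts against the last step, it was 0.445 ± 0.242 in knockout and 0.225 ± 0.166 in control. The exact permutation test, two-sided, gave p = 0.8 and 0.4 for these ratios.

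Fructose and glycerol entry had 8 of 10 kept genes higher and a median of 0.35, which was 0.14 without control replicate 1 and 0.50 without control replicate 3. Ketohexokinase, Khk, which starts fructose breakdown, came to 0.43 (SE 0.21), and to 0.13 and 0.80 in edgeR without control replicates 1 and 3. In either fit the control arm is 1 library, and DESeq2 gave Khk 0.80 without control replicate 3. The pentose phosphate pathway had 5 of 8 higher and a median of 0.094, which was -0.013 without control replicate 1 and 0.26 without control replicate 3, with Tkt, transketolase, at 0.41 (SE 0.11). Regulators of glycolytic genes had 12 of 20 higher and a median of 0.034, from -0.042 to 0.085 with each library left out. Among them Mlxipl, which encodes ChREBP, stood at 340 to 477 CPM in knockout and at 376 and 441 CPM in control, and Ppargc1a, a coactivator of fasting genes, came to 0.51 (SE 0.18) with a range of 0.33 to 0.73 on leaving out a library. Glucose-responsive ChREBP targets outside glycolysis had 14 of 15 higher and a median of 0.56, and 5 of 15 had all knockout libraries above both controls, where 52.1% and 8.16% of all genes did. DESeq2 called 1 of the 15, the fatty acid synthase Fasn (adjusted p = 4.03e-09), where edgeR gave an adjusted p of 0.970. Fasn stood at 1318 ± 164 CPM (SD, n = 3) in knockout and 593 ± 10.2 CPM (SD, n = 2) in control. The median of the 15 was 0.32 without control replicate 1 and 0.85 without control replicate 3.

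In shape over the 5 libraries the 8 genes were not alike. Slc2a2 and Eno1 were the closest pair, with a root mean square difference of 0.12 in centred log2 CPM, and Pklr was the farthest from each of the others, at 0.48 to 0.77. The genes whose profile was nearest to the mean of the 8 were Gm12164, Srprb and Slc10a1, at differences of 0.023, 0.043 and 0.044 over the same 5 libraries.

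Markers of zones and other cells varied beside these values, and their part in them was not tested. Of the pericentral hepatocyte markers, 12 of 12 had a higher fitted level (median log2 fold change 0.21) and were summed at 11906 to 12674 CPM in knockout and 9165 and 10512 in control. Every knockout library was above both controls for 5 of these 12, where 8.16% of all genes had this order. Of the periportal markers, 9 of 11 were lower (median -0.20), at 66505 to 80488 CPM in knockout and 62920 and 91321 in control. That sum includes Alb, which is also among the hepatocyte markers. All knockout libraries were below both controls for 1 of these 11, where 8.72% of all genes had this order. DESeq2 called 1 of the 11 lower, and edgeR called 0. Erythroid markers, which bear on Pklr as a red-cell gene, were lower for 5 of 5 kept genes, at 424 to 543 CPM in knockout and 503 and 674 in control. Skeletal muscle markers were summed at 68.0 CPM in knockout replicate 1 and at 1.06 to 1.44 CPM in the other 4 libraries. Ckm, creatine kinase of muscle, had 153 counts there and 0 elsewhere. Without that library Eno3 came to 0.52 and Pfkm to 0.29 on the log2 scale. Of the endothelial markers, 9 of 10 were lower, as were 10 of 11 macrophage, 9 of 10 stellate cell, 5 of 7 cholangiocyte and 4 of 5 lymphocyte markers. All knockout libraries were below both controls for 5 of 10 endothelial, 0 of 11 macrophage and 4 of 10 stellate cell markers. The same held for 1 of 7 cholangiocyte and 1 of 5 lymphocyte markers, and for 8.72% of all genes. Adipocyte markers had 3 of 4 kept genes higher, with a median log2 fold change of 1.17, and were summed at 31.8 CPM in knockout replicate 2 and at 11.4 to 23.9 CPM in the other 4 libraries.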

How the data were processed

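Per the labels' protocols, whole-liver RNA went through the TruSeq RNA kit of Illumina onto a HiSeq2500. The authors deposited 1 table of raw counts, whole numbers of reads per gene and library. Tools listed in the submitters' processing notes are Trimmomatic 0.33, FastQC, featureCounts 1.4.6-p4 and Subread 1.4.6-p4, with the build as mm10 or GRCm38. Not given in the sources used here are the annotation release, the strand setting and how reads with several matches were handled. Rows naming no gene numbered 0.

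The members and lists were chosen with earlier results of these data known, and so were the comparisons. Of the 46983 identifiers, 46488 were paired with a symbol through GENCODE vM21. Genes were kept by filterByExpr, scaled by trimmed mean of M values and tested with edgeR 4.0.16, quasi-likelihood F test, two-sided, no robust prior, Benjamini-Hochberg over all kept genes, threshold 0.05. The alternatives were DESeq2 1.42.0 and limma-voom 3.58.1, other scalings, no filter, all 6 columns, a replicate block, copies summed, and each library left out. R was 4.3.3, Python 3.11.15, scipy 1.17.1 and BLAST+ 2.17.0, which found the copies. A count of 3 corresponds to 0.0905 to 0.102 CPM, and such limits cover counting error only. The replicates are separate mice per the labels.

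Named genes were the 8, Mtdh, the alternative isozymes of their steps, their near-identical copies, up to 3 genes of each pathway list with the smallest p or the highest level per length, and the 3 genes nearest in profile with a mean of at least 10 CPM. Some genes of this rule are not reported here. Genes overlapping a member, and Ckm, were named after their values were seen. The test was checked on simulated counts of 16165 genes, 3 libraries against 2, with 50 genes per fold. It called 2 at 1.5-fold, 24 at 2-fold, 48 at 4-fold and 50 at 8-fold, with 16 of 15965 unchanged genes. The changed genes were drawn without those of the lowest levels. With many changed genes an adjusted p under 0.05 is easier to reach than in the real data, where edgeR called 1 gene. Recovery in the real data can thus be lower than these counts.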

Additional observations from a re-analysis of the deposited data

How the results depend on the processing

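The main limit is that 2 distinct control libraries carry the comparison. Of the 8 genes edgeR called 0 under every alternative run in it, limma-voom called 0 in its 1 fit, on the libraries of the main comparison, and DESeq2 called 1, Pklr, without control replicate 3, an alternative chosen after seeing the data like all DESeq2 fits with a library left out. The number of the 8 with a higher fitted level was 7 or 8, and their median log2 fold change with each library left out ran from 0.25 to 0.38. Over all genes the number called was 1 with edgeR, 3 without the low-count filter, 0 with the replicate block and 18 with DESeq2. With 1 library left out it was 1 to 6 with edgeR and 6 to 144 with DESeq2 (6, 48, 68, 26 and 144 on dropping knockout replicates 1, 2 and 3 and control replicates 1 and 3, in that order). The log2 fold change of Gckr turned to -0.056 with the replicate block and to -0.051 without knockout replicate 2 in DESeq2, and in edgeR it ran from -0.053 to 0.213 over the libraries left out. Pgk1 turned to -0.0041 without control replicate 1 in DESeq2. Without that library Gm16103 turned to -0.016 and Gm5537 to -0.055 in DESeq2, and in edgeR they ran from -0.012 to 0.523 and from -0.050 to 0.165. The cause was not tested. Leaving out a library moved the isozyme share difference, knockout minus control, in percentage points from -0.931 to 3.28 for Slc2a2, -2.49 to 1.4998 for Pfkl, -7.54 to 4.34 for Pfkfb1, -1.13 to 3.45 for Eno1 and 1.12 to 5.93 for Pklr. The replicate numbers were not taken to pair the samples, since the labels tie them to no shared animal or batch. The correlation of deviations was 0.060 and 0.155 for the 2 same-numbered pairs, and with 2 controls, whose deviations mirror each other, it cannot settle pairing.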
